A study of Mus musculus with 92 samples.

Results

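The COP9 signalosome is a multi-subunit protein complex that removes the ubiquitin-like protein NEDD8 from cullins, the scaffolds of cullin-RING ubiquitin ligases. Cycles of NEDD8 addition and removal let these ligases exchange the receptors that choose which proteins are marked for the proteasome. Most subunits carry a PCI domain and build the frame of the complex, and a pair with MPN domains holds the active site. In the mouse, loss of Cops2, Cops3, Cops5 or Cops8 stops development around implantation, so the complex is needed in early embryos.

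The subunit genes described here are the rows of the count table whose symbols run from Cops2 to Cops8, with Cops7a and Cops7b as separate genes. There were 8 such rows among 7886 genes, and all 8 genes of that pattern in the annotation were present. The genes were picked with values from these libraries known, for Cops7a in particular, so the levels of Cops7a and Cops5, and of every subunit in the mi699a-5p group, are given as a description without a test. Gps1, which encodes subunit 1, and Cops9, which encodes the smallest subunit, fall outside the symbol pattern and are given beside them.

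The data are Smart-seq2 libraries (full-length cDNA of one cell, with no molecular identifiers) of single blastomeres from 8-cell mouse embryos. All embryos were wild type and of the C57BL/6N strain, and sample titles name in vitro fertilisation. Zygotes had been injected with the microRNA let-7d (Let7d, 18 cells of 3 mouse ids), let-7e (Let7e, 20 cells of 4), a microRNA written mi699a-5p in the labels (21 cells of 4) or a negative control (NC, 22 cells of 3). The values below are read counts summed over the cells of one mouse id, called a replicate. They were scaled to CPM (counts of a gene relative to the library total) with edgeR's TMM factors. Marker sums and values of single cells are CPM without these factors. What a mouse id stands for (one embryo, its mother or a gamete donor) is not given in the sources used here, so p-values measure only the spread between mouse ids, which may be technical. No mouse id was shared between groups, and a handling batch and the injection cannot be told apart.

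Summed reads ranged from 6329464 to 24037593 per replicate. Reads per cell ranged over replicates from 2991646 to 4071285 in Let7d, from 2916582 to 3164732 in Let7e, from 1936975 to 2437853 in mi699a-5p and from 2225246 to 2732434 in NC. Ribosomal RNA rows took 3.68 to 8.8% of reads in Let7d, 6.00 to 14.0% in Let7e, 8.03 to 12.6% in mi699a-5p and 9.24 to 15.9% in NC. Of 10 blastomere markers, 9 were in the table, with summed levels of 6171 to 7226 CPM in Let7d, 7243 to 7568 CPM in Let7e, 6827 to 9519 CPM in mi699a-5p and 6679 to 7516 CPM in NC. Of 10 cumulus and granulosa markers, Nr5a2 and Gja1 were in the table, with summed levels of 1201 to 1771 CPM in Let7d, 1002 to 1747 CPM in Let7e, 757 to 1182 CPM in mi699a-5p and 1049 to 1619 CPM in NC. The other cumulus and granulosa markers, and those of sperm, blood and stroma or skin, were not among the rows of the filtered table. Whether the Nr5a2 and Gja1 reads came from the blastomeres themselves was not tested.

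The injected let-7 microRNAs are shown because the subunit transcripts were searched for matches to their seed (bases 2 to 8, in capitals), the stretch that pairs with target messages. The mature forms come from RefSeq (GRCm38.p6).
mmu-let-7d-5p: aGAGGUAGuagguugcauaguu
mmu-let-7e-5p: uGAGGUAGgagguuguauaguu
The genes lie at chr13:48536078-48536099 on the minus strand for let-7d and chr17:17830366-17830387 on the plus strand for let-7e. Both forms share the seed GAGGUAG and differ at 3 positions, A1U, U9G and C16U, with the let-7d base first and positions counted from 1 at the 5′ end. No mature sequence is shown for mi699a-5p.

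Seed matches were searched on the transcript strand in the longest annotated 3′ UTR of each gene (GENCODE M21, GRCm38). The 7-base match is CTACCTC, and the 6-base match TACCTC is contained in it. Cops7b, the sister gene of Cops7a, was the subunit with the 7-base match in its longest 3′ UTR (4159 bases), at 2 places, beside 1 place with the 6-base match alone. Cops7a, Cops6, Cops8 and Gps1 each had 1 6-base match, and another annotated Cops6 transcript held the 7-base match. The sites below are shown with the match in capitals.
Cops7b first 7-base match: tctgtgatgggCTACCTCcctccc
Cops7b second 7-base match: caatccttttcCTACCTCccttgc
Cops7a: atgttctgttggTACCTCttatgt
Cops6: gagggtgatatgTACCTCatcctt
Cops8: aagaaactgtctTACCTCtga
Gps1: cccaggtaagggTACCTCagaccc
Over the 7573 genes with an annotated 3′ UTR, 10.6% held the 7-base match and 26.3% held the 6-base match. Cops2, Cops3, Cops4, Cops5 and Cops9 had neither string in this window. These matches are a description of the letters and not of binding.

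Cops7a encodes a PCI subunit, one of a pair of alternative subunits with the product of Cops7b (Cops7a, chr6:124958413-124965538, minus strand). Its level was 493, 323 and 376 CPM in the 3 Let7d replicates and 368, 488.5, 466 and 453 CPM in the 4 Let7e replicates. It was 278, 261, 210 and 208 CPM in the 4 mi699a-5p replicates, against 417.5, 359 and 483.5 CPM in the 3 NC replicates. Every mi699a-5p replicate lay below each of the 10 other replicates, and the let-7 and NC replicates overlapped. The means were 239 ± 35.8 CPM in mi699a-5p (SD, n = 4) and 420 ± 62.2 CPM in NC (SD, n = 3). The log2 fold change of mi699a-5p over NC was -0.81 ± 0.20 (standard error), which is 57.0% of the NC level. Against the mean of the let-7 groups it was -0.81 ± 0.17. These values chose the gene and are given without a test.

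**Figure D1:**
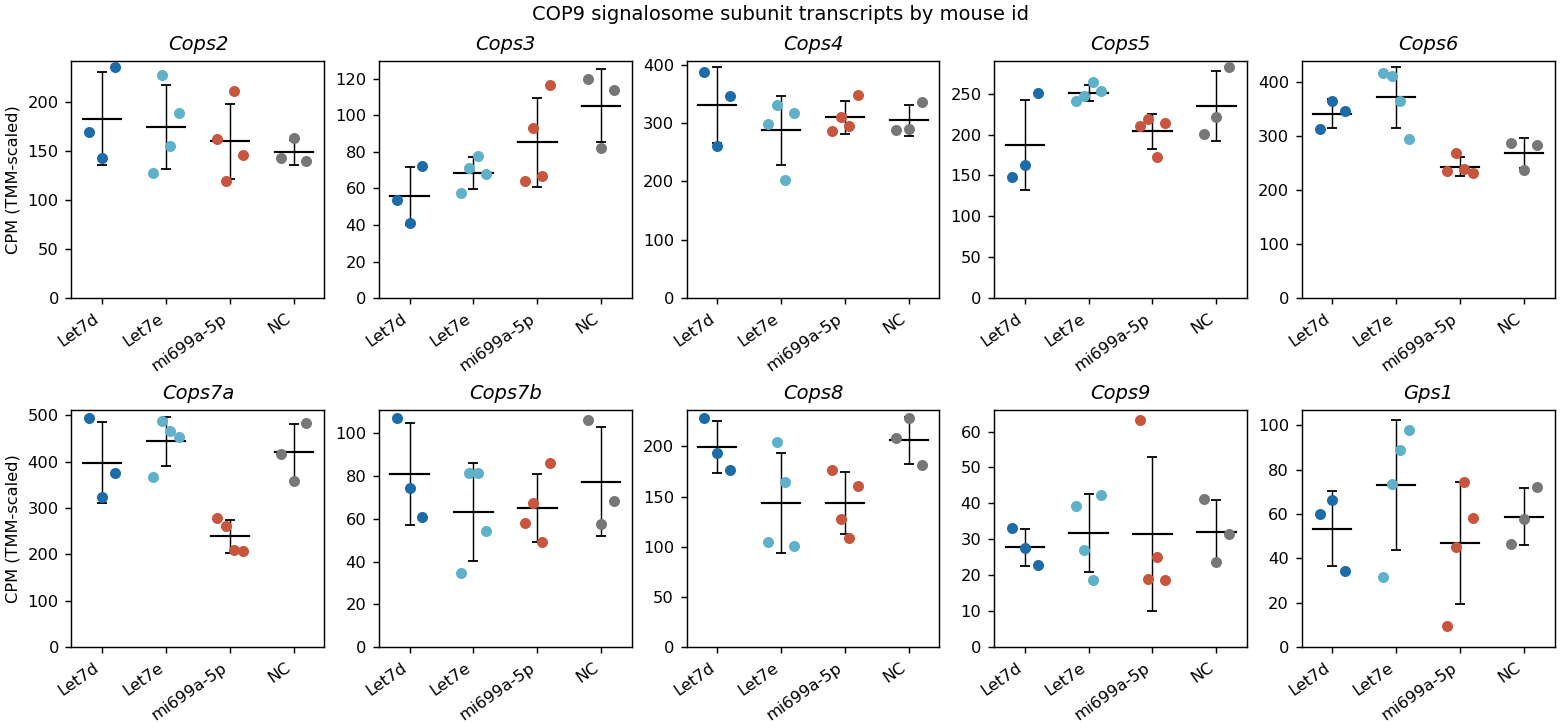
Each panel shows one subunit transcript, with CPM (TMM-scaled, starting at 0) on the vertical axis and the groups Let7d, Let7e, mi699a-5p and NC from left to right; points are replicates, long lines are means and whiskers are 1 SD. The 4 mi699a-5p points of Cops7a lie between 208 and 278 CPM, below all other points of that panel, while those of Cops2 and Cops4 lie among the other groups.

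The position of Cops7a among all genes gives the background of that description. In mi699a-5p against NC, 395 of 7886 genes (5.01%) had a log2 fold change as low as or lower than that of Cops7a, and in mi699a-5p against the let-7 groups 262 genes (3.32%) did. Reads per cell were lower in mi699a-5p than in the other groups over most replicates. NC replicate 3 had 2225246 reads per cell, fewer than mi699a-5p replicates 1 and 2, and its Cops7a level was 483.5 CPM. Within mi699a-5p, replicates 3 and 4 had 1936975 and 2190990 reads per cell and Cops7a levels of 210 and 208 CPM. Replicates 1 and 2 had 2300504 and 2437853 reads per cell and 278 and 261 CPM. Whether depth has a part in the difference was not tested. Leaving the ribosomal RNA rows out of the totals gave the same log2 fold change of -0.81 over NC, an alternative chosen after the data were seen. The TMM factors already adjust for a few rows with large shares, so this alternative could hardly move the value.

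The sums are made of the single cells, so the cell values describe their spread and are no separate evidence. Every one of the 81 cells carried Cops7a reads. Per cell the level ran from 160 CPM to 777 CPM in Let7d (median 402) and from 165 to 907 CPM in Let7e (median 422). It ran from 101 to 439 CPM in mi699a-5p (median 235), against 237 to 638 CPM in NC (median 402.5). In mi699a-5p, 11 of 21 cells lay below the lowest NC cell and 20 of 21 below the NC median. In Let7d, 2 of 18 cells lay below the lowest NC cell, and in Let7e 1 of 20 did. The medians by replicate were 247, 237, 195 and 230 CPM in mi699a-5p, against 421, 350 and 441 CPM in NC, so no single replicate carries the difference. Cells of one replicate share their source and were not counted as replicates.

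**Figure D2:**
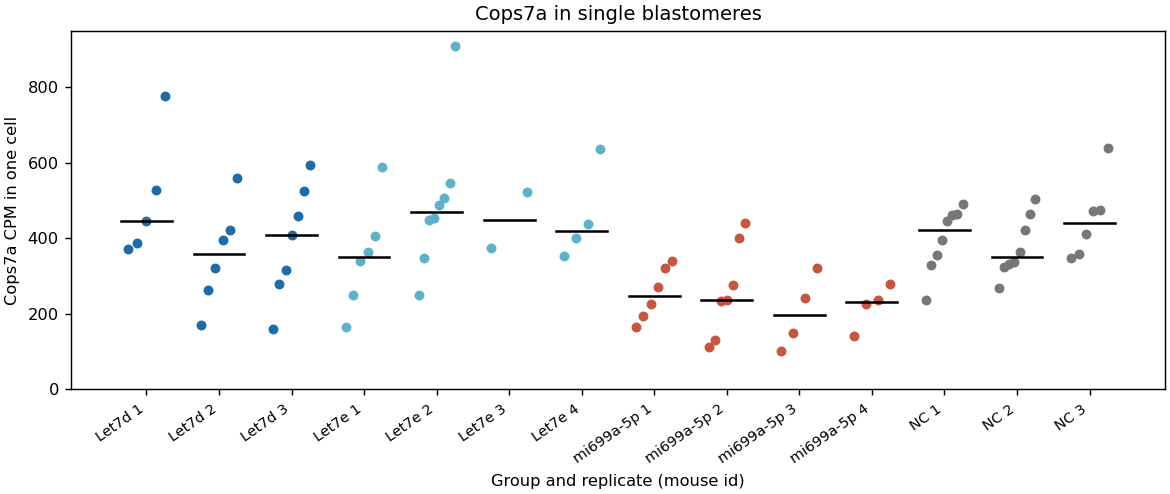
Each point is the Cops7a level of one blastomere in CPM (vertical axis, starting at 0, not TMM-scaled), grouped by replicate along the horizontal axis from Let7d to NC, and lines are medians. The medians of the 4 mi699a-5p replicates lie between 195 and 247 CPM, below those of the other 10 replicates.

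Cops7b (chr1:86582904-86609375, plus strand) did not share the separation of Cops7a in mi699a-5p. Its level was 107, 74.1 and 60.9 CPM in Let7d and 34.7, 81.5, 81.5 and 54.4 CPM in Let7e. It was 57.8, 67.2, 49.2 and 86.3 CPM in mi699a-5p, against 106, 57.4 and 68.4 CPM in NC. All groups overlapped. The log2 fold change over NC was -0.25 ± 0.34 in mi699a-5p. It was 0.06 ± 0.37 in Let7d and -0.30 ± 0.34 in Let7e, with edgeR adjusted p-values of 1 and 0.999, so neither passed the threshold. Per kilobase of exon, Cops7a exceeded Cops7b 10.3 ± 2-fold for Let7d, 15.6 ± 4.65-fold for Let7e and 7.82 ± 2.09-fold for mi699a-5p, against 11.7 ± 3.31-fold in NC (SD, n = 3, 4, 4 and 3). The ratios of mi699a-5p, 4.91 to 9.80, overlapped those of NC, 8.00 to 14.4. Given this overlap and the standard error of Cops7b, these values do not show whether the sister genes differ in mi699a-5p.

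Cops5 encodes the catalytic subunit, a metalloprotease that cuts NEDD8 from cullins (chr1:10024601-10038168, minus strand). Its level was 148, 163 and 251 CPM in Let7d and 240.5, 248, 264 and 253 CPM in Let7e. It was 210.5, 219, 173 and 214 CPM in mi699a-5p, against 201, 221 and 282 CPM in NC. Each injected group overlapped NC, and Let7e was the tightest, with an SD of 9.84 CPM against 42.5 CPM in NC. The log2 fold change over NC was -0.33 ± 0.23 for Let7d, 0.10 ± 0.22 for Let7e and -0.20 ± 0.22 for mi699a-5p, and that of Let7e over Let7d was 0.42 ± 0.22. Without Let7d replicate 3, the highest of its group, Let7d over NC was -0.59 and Let7e over Let7d 0.68. Cops5 did not share the separation of Cops7a in mi699a-5p.

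Cops6 encodes the MPN partner of the catalytic subunit, which has no protease activity of its own (chr5:138161071-138164646, plus strand). Its level was 312, 365 and 347 CPM in Let7d and 417, 411, 365 and 294 CPM in Let7e. It was 235, 269, 238 and 232 CPM in mi699a-5p, against 287, 237 and 284 CPM in NC. All let-7 replicates lay above all mi699a-5p and NC replicates. The log2 fold change over NC was 0.34 ± 0.20 in Let7d (edgeR p = 0.103, adjusted p = 1) and 0.46 ± 0.19 in Let7e (edgeR p = 0.0237, adjusted p = 0.999), so neither passed the threshold of 0.05 over all genes. These comparisons share the NC replicates. In mi699a-5p, Cops6 was -0.15 ± 0.19 over NC and -0.55 ± 0.16 over the mean of the let-7 groups, 68.4% of their level.

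Cops8 encodes the smallest PCI subunit (chr1:90602981-90613341, plus strand). Its level was 228, 193.5 and 177 CPM in Let7d and 104.5, 204, 165 and 101 CPM in Let7e. It was 176, 128, 109 and 161 CPM in mi699a-5p, against 208, 228 and 182 CPM in NC. The mi699a-5p replicates lay below all NC replicates, by a gap of few CPM between the nearest ones, and overlapped those of Let7e. The log2 fold change over NC was -0.52 ± 0.26 in mi699a-5p, 69.7% of the NC level. It was also -0.52 ± 0.26 in Let7e, where the groups overlapped (edgeR p = 0.0625, adjusted p = 0.999), and -0.05 ± 0.28 in Let7d (adjusted p = 1).

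Cops3 encodes a PCI subunit of the frame (chr11:59817795-59839838, minus strand). Its level was 53.5, 40.85 and 72.35 CPM in Let7d and 57.2, 71.0, 77.7 and 67.6 CPM in Let7e. It was 64.2, 93.2, 66.7 and 116 CPM in mi699a-5p, against 120, 82.3 and 114 CPM in NC. All replicates of both let-7 groups lay below all NC replicates, while mi699a-5p overlapped NC. The log2 fold change over NC was -0.92 ± 0.31 in Let7d (edgeR p = 0.00781, adjusted p = 0.886) and -0.62 ± 0.28 in Let7e (edgeR p = 0.0418, adjusted p = 0.999), and neither passed. In mi699a-5p it was -0.31 ± 0.28 over NC. Cops3 was among the most uneven of the subunits from cell to cell, and 2 of 81 cells had no read of it. The gene overlaps the opposite-strand genes Nt5m by 392 bases and Gm16062 by 697 bases. Shorter opposite-strand overlaps are annotated for Cops5 (Cspp1, 182 bases), Cops7a (Gm23851, 103 bases), Cops6 (Mcm7, 64 bases) and Cops2 (Galk2, 31 bases). Whether counting used strand is not given in the sources used here.

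Cops2 and Cops4 encode PCI subunits of the frame that together with Cops7a and others hold the catalytic pair. Cops4 (chr5:100518309-100547803, plus strand) was the steadiest, at 388, 260 and 346 CPM in Let7d, 298.5, 331, 202 and 317.5 CPM in Let7e, 286, 310.2, 294 and 348 CPM in mi699a-5p, and 288, 290 and 336 CPM in NC. Its log2 fold change in mi699a-5p over NC was 0.02 ± 0.21. Cops2 (chr2:125830304-125859139, minus strand) was at 169, 143 and 235 CPM in Let7d, 127, 227, 155 and 188 CPM in Let7e, 162, 119, 211 and 146 CPM in mi699a-5p, and 143, 163 and 140 CPM in NC. Its log2 fold change in mi699a-5p over NC was 0.10 ± 0.26. For both genes the groups overlapped in every comparison, and the edgeR adjusted p-values in the let-7 comparisons were at least 0.961.

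Gps1 and Cops9 had no separation either. Gps1, a PCI subunit, was at 59.8, 66.2 and 34.4 CPM in Let7d, 31.7, 73.5, 88.8 and 97.6 CPM in Let7e, 9.71, 45.2, 74.3 and 58.0 CPM in mi699a-5p, and 46.5, 57.8 and 72.35 CPM in NC. The first mi699a-5p replicate was the lowest of the 14, with no cell above 20.6 CPM. Cops9 was at 33.1, 27.5 and 22.7 CPM in Let7d, 39.2, 27.0, 18.6 and 42.2 CPM in Let7e, 63.3, 18.9, 25.1 and 18.7 CPM in mi699a-5p, and 41.2, 23.8 and 31.5 CPM in NC. One cell of the first mi699a-5p replicate, at 355 CPM, set its high value, since the next cell of that replicate was at 42.9 CPM. The log2 fold changes in mi699a-5p over NC were -0.33 ± 0.50 for Gps1 and -0.03 ± 0.46 for Cops9. Without mi699a-5p replicate 1 they were 0.01 for Gps1 and -0.62 for Cops9.

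Counted over the 8 subunits, Cops7a was not the only transcript whose mi699a-5p replicates lay apart, but its separation was the widest in log2 fold change. In mi699a-5p against NC, Cops7a and Cops8 did not overlap and both were lower. Over all genes 3.87% were lower without overlap in that comparison and 4.51% higher, where none of the 8 subunits was. Of the 8 log2 fold changes 6 were below 0, with a median of -0.23 against 0.045 over all genes. In mi699a-5p against the let-7 groups, Cops7a and Cops6 lay lower without overlap, against 0.482% of all genes, and none lay higher, against 0.52%. The members were picked with these values known, so nothing is read from these shares. In Let7d against NC, Cops3 was lower and Cops6 higher without overlap, where 5.96% and 6% of all genes were. In Let7e against NC the same 2 subunits lay apart in the same directions, where 2.84% and 2.78% of all genes did. In Let7e against Let7d none of the 8 lay apart, against 6.07% of all genes.

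Across all genes the edgeR quasi-likelihood test at an adjusted p of 0.05 called 0.0127% of genes in Let7d against NC, which is 1 gene that has no symbol in the annotation used. It called 0% in each of the other comparisons. At an unadjusted p under 0.05 it had 370 genes (4.69%) in Let7d against NC, 317 (4.02%) in Let7e against NC, 434 (5.5%) in mi699a-5p against NC, 425 (5.39%) in Let7e against Let7d and 504 (6.39%) in mi699a-5p against the let-7 groups. DESeq2, run as an alternative, called 3, 0, 6, 8 and 11 genes in the same comparisons. In Let7d or Let7e against NC, and in Let7e against Let7d, no tested subunit was called by either tool. The mi699a-5p comparisons, also that against the let-7 groups, are left out of this statement, since the subunits are given there without a test.

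**Figure D3:**
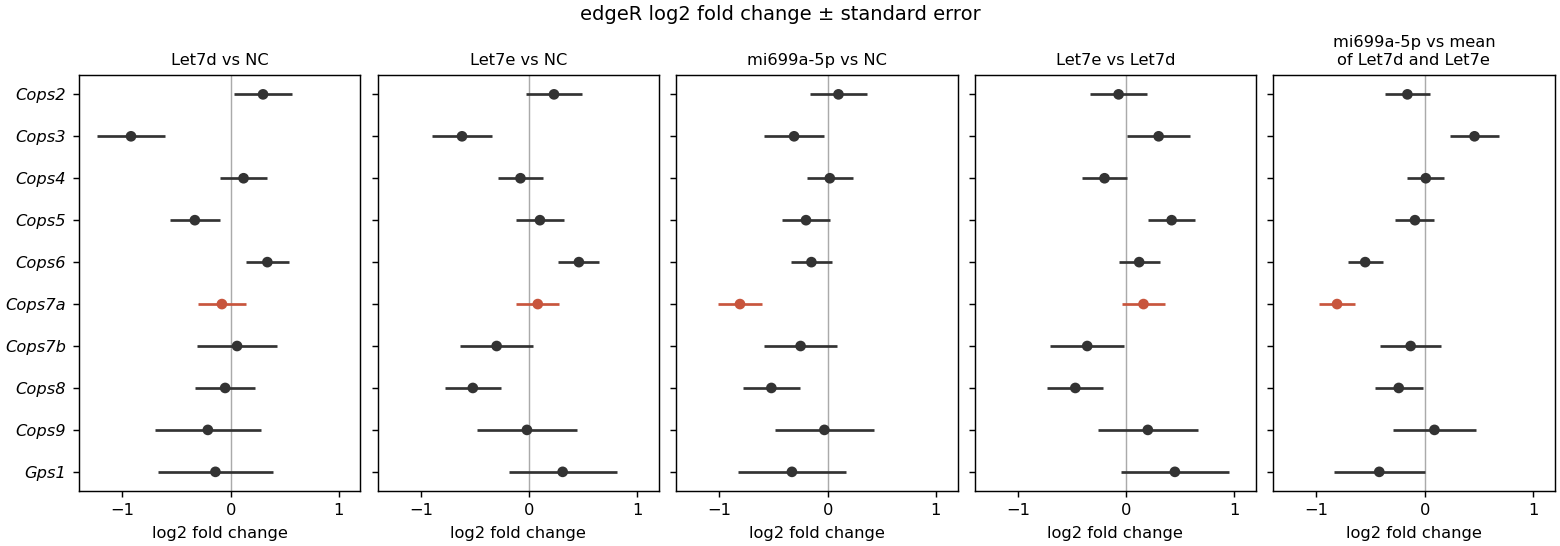
Points are edgeR log2 fold changes of 10 subunit transcripts (rows) and lines are ± 1 standard error, with one panel for each comparison and Cops7a in red. Cops7a lies at -0.81 in both mi699a-5p panels and between -0.08 and 0.16 in the others, and Cops3 lies lowest in both let-7 panels against NC.

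Set against the rest of the complex, Cops7a was also lower within the mi699a-5p libraries. Its log2 CPM minus the mean log2 CPM of the 7 other subunits was 1.26 ± 0.25 for Let7d, 1.48 ± 0.10 for Let7e and 0.66 ± 0.27 for mi699a-5p, against 1.28 ± 0.16 in NC (SD). The mi699a-5p values, 0.29 to 0.92, lay below all others, of which the lowest was 1.08. The mean log2 CPM of the 7 others ran from 7.10 to 7.41 in mi699a-5p and from 7.32 to 7.50 in NC, which overlap. Per kilobase of exon, Cops7a made up 27.8 ± 4.26% of the 8 subunits for Let7d, 29.9 ± 2.47% for Let7e and 21.3 ± 2.72% for mi699a-5p, against 29.8 ± 2.02% in NC. The sum of the 7 others per kilobase was 311 to 345 in mi699a-5p and 342 to 380 in NC, so the highest mi699a-5p replicate passed the lowest NC one by a small margin. Against the let-7 groups these sums did not overlap, since they were 349 to 411 in Let7d and 352 to 440 in Let7e, so the summed level of the other subunits was also lower in mi699a-5p than in either let-7 group. The mean log2 CPM of the same 7, which weights them equally, did overlap, at 7.17 to 7.47 in Let7d and 7.07 to 7.57 in Let7e. In levels given as CPM or CPM per kilobase, fewer transcripts per cell and a change in the other RNA of the cell cannot be told apart. The log2 difference and the percentage are relative to the other subunits only.

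**Figure D4:**
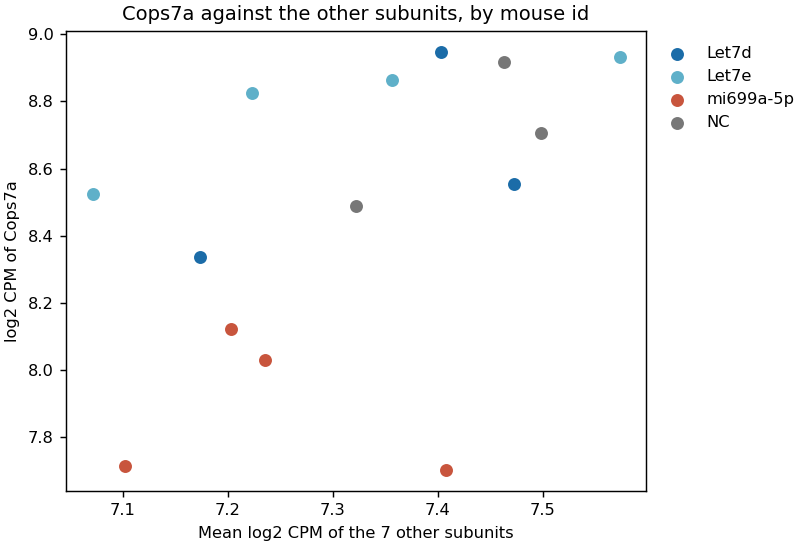
Each point is a replicate, with the mean log2 CPM of the 7 other subunits on the horizontal axis and the log2 CPM of Cops7a on the vertical axis (neither axis starts at 0); colours mark Let7d, Let7e, mi699a-5p and NC. The mi699a-5p points lie lowest on the vertical axis, while their horizontal values, 7.10 to 7.41, lie within the range of the other groups.

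Levels of different subunits were set against each other per length. The length was that of all annotated exons of a gene together, and not of the transcripts present in the cells. For Cops4 it was 5006 bases, with a longest annotated 3′ UTR of 366 bases. The order and sizes below, and the per-kilobase ratios and shares of Cops7a above, depend on these lengths. On CPM per kilobase of annotated exon, over the 14 replicates, Cops7a averaged 137 ± 37.6, Cops6 122 ± 25.6, Cops4 61.3 ± 8.91, Cops5 58.6 ± 10.5 and Cops2 46.8 ± 10.2 (SD). Cops8 averaged 37.98 ± 9.81, Cops3 22.7 ± 7.01, Cops9 20.6 ± 8.23, Gps1 20.2 ± 8.16 and Cops7b 12.8 ± 3.75. Cops6 exceeded Cops4, and Cops8 exceeded Cops3, in 14 of 14 replicates. Cops7a exceeded Cops6 in 9 of 14, Cops4 exceeded Cops5 in 9 of 14 and Cops9 exceeded Gps1 in 5 of 14, so these neighbours have no clear order.

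**Figure D5:**
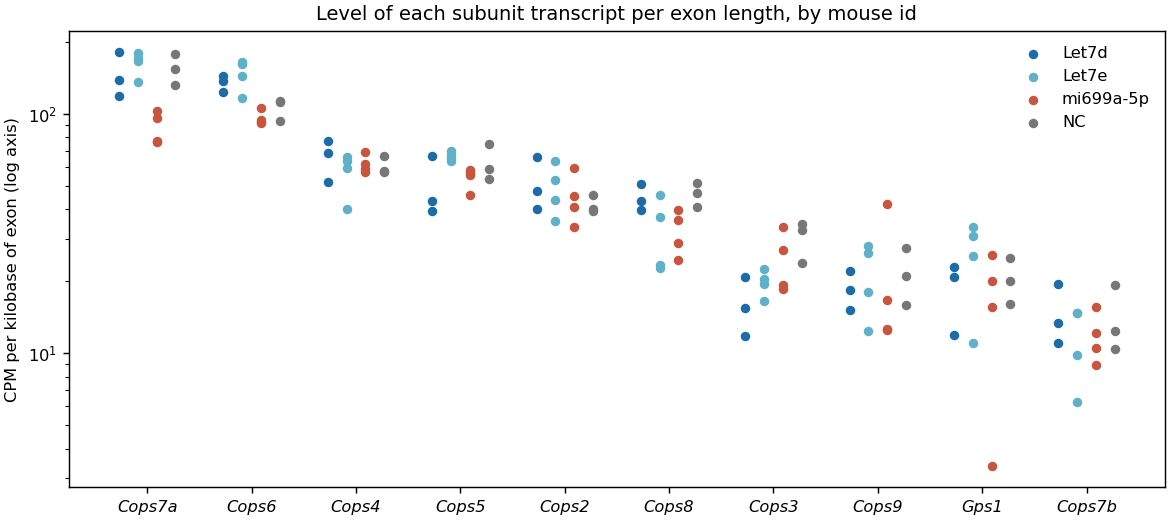
Points are CPM per kilobase of exon of each replicate on a log axis, with subunits ordered by their mean from left to right and Let7d, Let7e, mi699a-5p and NC side by side within each. Cops7a and Cops6 lead with means of 137 and 122, and the mi699a-5p points of Cops7a fall below the points of its other groups.

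Subunits also differed in how even they were among the cells of one replicate. The mean SD of log2(CPM + 1) within replicates was 0.37 for Cops4, 0.49 for Cops7a, 0.50 for Cops5, 0.52 for Cops6 and 0.56 for Cops8. It was 0.77 for Cops9, 0.86 for Cops2, 1 for Cops7b, 1.03 for Cops3 and 1.19 for Gps1. All 81 cells carried reads of Cops2, Cops4, Cops5, Cops6, Cops7a, Cops7b and Cops8, and Cops3, Cops9 and Gps1 were without a read in 2, 1 and 3 cells.

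The subunits did not vary as one block. Over the 14 replicates, the 28 pairs of the 8 subunits had a median Pearson r of 0.09 in log2 CPM, from -0.44 for Cops3 with Cops6 to 0.69 for Cops8 with Cops7b, against a median of -0.002 over all pairs of genes with a mean of at least 10 CPM. The replicates share groups and TMM factors, and no p is given. With Cops7a, the subunits had an r of 0.60 for Cops6, 0.35 for Cops8, 0.33 for Cops5, 0.27 for Cops7b, 0.14 for Cops2, 0.01 for Cops4 and -0.08 for Cops3.

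The 5 genes most like Cops7a over the 14 replicates, out of 7275, were Fdx1 (r = 0.861), Cfl1 (r = 0.856), Snhg5 (r = 0.856), Pard6b (r = 0.831) and Pcbp2 (r = 0.825). Fdx1 encodes a mitochondrial ferredoxin, Cfl1 the actin-severing protein cofilin, and Pard6b a cell polarity protein. The 5 most like Cops5 were Eif3f (r = 0.902), Arid1b (r = 0.839), Ube2j2 (r = 0.813), Ptgis (r = 0.808) and Slc12a4 (r = 0.808). Eif3f encodes an MPN subunit of the translation initiation factor eIF3, whose architecture resembles that of the COP9 signalosome. These are the highest values among all genes compared, and no p is given.

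The wider pathway showed no gene past the threshold by edgeR in any comparison. The NEDD8 list (the modifier, its activating, conjugating and removing enzymes) had 10 of 13 genes measured. In mi699a-5p against NC 6 were above 0 and 4 below, with a median log2 fold change of 0.05, and the counts were 4 and 6 in Let7d (-0.27) and 5 and 5 in Let7e (-0.02). Of cullins with their RING partners and the exchange factor Cand1, 10 of 13 were measured. Those above and below 0 numbered 7 and 3 in Let7d (median 0.20), 9 and 1 in Let7e (0.34) and 7 and 3 in mi699a-5p (0.42), against a median over all genes of 0.011, 0.019 and 0.045 in the same order. These comparisons share the NC replicates.

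Cand1, which binds cullins free of NEDD8 and lets their receptors exchange, averaged 1211 ± 253 CPM in Let7d (n = 3), 1384 ± 522 CPM in Let7e (n = 4) and 1161 ± 126 CPM in mi699a-5p (n = 4), against 790 ± 173 CPM in NC (SD, n = 3). Its log2 fold change over NC was 0.62 ± 0.28 in Let7d (edgeR adjusted p = 1), 0.81 ± 0.26 in Let7e (edgeR adjusted p = 0.999) and 0.56 ± 0.26 in mi699a-5p, where the groups did not overlap. Cul1, the scaffold of SCF ligases, averaged 326 ± 45.1 CPM in Let7d and 211 ± 31.2 CPM in NC without overlap (log2 fold change 0.63 ± 0.27, edgeR adjusted p = 1). Rnf7, a RING partner of cullins, was at -0.45 ± 0.20 in Let7d over NC (edgeR adjusted p = 1). Cul5, another cullin scaffold, was at 0.43 ± 0.21 in mi699a-5p over NC.

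Among 26 measured adaptors and substrate receptors of 35 listed, 14 were above 0 and 12 below in Let7d against NC (median 0.08), 8 and 18 in Let7e (-0.06) and 14 and 12 in mi699a-5p (0.04). Fbxo5, an inhibitor of the anaphase-promoting complex with an F-box, was at -0.61 ± 0.34 in Let7d (edgeR adjusted p = 1) and -0.66 ± 0.32 in Let7e over NC (edgeR adjusted p = 0.999). Against the let-7 groups it was at 0.38 ± 0.26 in mi699a-5p, where Eloc, the elongin C adaptor, was at 0.39 ± 0.23. The Eloc value rests on mi699a-5p replicate 1 and was -0.04 without it. Spop, a receptor of Cul3 ligases, was at -0.49 ± 0.30 in Let7e over NC (edgeR adjusted p = 0.999). Crbn, a receptor of Cul4 ligases, averaged 36.6 ± 20.5 CPM in Let7e and 14.2 ± 3.61 CPM in Let7d (log2 fold change 1.36 ± 0.54, edgeR adjusted p = 0.924). It was at -1.14 ± 0.45 in mi699a-5p over the let-7 groups. With replicates of at least 3 cells, Crbn was at 0.89 in Let7e over Let7d and -0.9 in mi699a-5p over the let-7 groups. In Let7e against Let7d, Skp2, an F-box receptor of SCF ligases, was at -0.74 ± 0.32 and Cop1, a ubiquitin ligase, at -0.75 ± 0.34 (edgeR adjusted p = 0.924 each).

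The proteasome lid and eIF3 are built from the same PCI and MPN domains. Of the lid, 9 of 10 genes were measured. In mi699a-5p against NC 1 was above 0 and 8 below (median -0.11), in Let7d 4 and 5 (-0.04) and in Let7e 4 and 5 (-0.06). Over all genes 45.9% were below 0 in mi699a-5p, 49% in Let7d and 48.1% in Let7e, with medians of 0.045, 0.011 and 0.019. The lists were chosen with earlier results of these data known, so nothing is read from the lid counts. The lid subunit Psmd3 averaged 285 ± 35.6 CPM in mi699a-5p (n = 4) and 393 ± 77 CPM in NC (SD, n = 3), at a log2 fold change of -0.46 ± 0.20, and Psmd8 was at -0.40 ± 0.20. Psmd14, the lid's ubiquitin-removing metalloprotease, was at -0.43 ± 0.17 in mi699a-5p over the let-7 groups. Of eIF3, 8 of 8 genes were measured. In mi699a-5p against NC 3 were above 0 and 5 below (median -0.03), in Let7d 5 and 3 (0.07) and in Let7e 6 and 2 (0.17). Eif3a was at 0.56 ± 0.23 in Let7e over NC (edgeR adjusted p = 0.999), and Eif3k averaged 294 ± 65.2 CPM in Let7e and 156 ± 44.9 CPM in Let7d (log2 fold change 0.91 ± 0.30, edgeR adjusted p = 0.874). Of 10 listed partners of the complex and substrates of cullin ligases, 9 were measured, with 5 above 0 and 4 below in Let7d against NC (median 0.01), 5 and 4 in Let7e (0.12) and 4 and 5 in mi699a-5p (-0.03).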

How the data were processed

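Read counts per gene and cell were deposited by the authors as whole numbers, in a table filtered on low CPM by its name. Per the submitters' processing notes, the tool was STAR and the build GRCm38.p6; the counting program is not given in the sources used here. The deposited RPKM values were not used. Of 92 labelled cells, 82 had a column and 10 were not analysed here. One pair of Let7d replicate 2 columns differed by no more than sampling noise (chi-square 1.05 per gene over 6197 genes, next pair 28.7) and was summed as 1 cell. Counts were summed by mouse id. Symbols came from GENCODE M21 (7878 of 7886 identifiers).

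All 4 groups were fitted together with edgeR 4.0.16 in R 4.3.3 (TMM, quasi-likelihood F test, two-sided, Benjamini-Hochberg over all genes at 0.05, 10 residual degrees of freedom), checked on simulated data. Log2 CPM used a prior count of 2. Limma 3.58.1 and DESeq2 1.42.0 served as alternatives, beside other normalizations, filters, left-out replicates and a replicate block. Members and lists were chosen with earlier results of these data known. Named were all subunits, Gps1 and Cops9, in each comparison the 2 genes upwards and 2 downwards with the smallest p over the NEDD8, cullin, receptor, lid and eIF3 lists (the partner and substrate list gives counts only), and the 5 genes most correlated with Cops7a and with Cops5.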

Additional observations from a re-analysis of the deposited data

Results flagged for a closer look

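In the mi699a-5p group, replicate 2 stood apart from the others for Cops6, at 269 CPM against 232, 235 and 238 CPM. Replicate 1 stood apart for Cops9, at 63.3 CPM against 18.7, 18.9 and 25.1 CPM. The gap to the nearest replicate divided by the range was 0.834 and 0.856, above Dixon's critical value for 4 samples. Of 20 groups of 4 replicates examined, chance flags about 5%.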

How the results depend on the processing

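Cops7a stayed below 0 in all 18 alternatives of mi699a-5p against NC (log2 fold change -0.91 to -0.70) and all 22 against the let-7 groups (-0.89 to -0.72). All of them use the values that chose the gene. The alternative without a filter on low counts repeats the main fit, since the main filter removed 0 genes. The alternative with replicates of at least 3 cells is the same fit as that without Let7e replicate 3, the only replicate with fewer cells. In Let7d or Let7e against NC, and in Let7e against Let7d, no tested subunit passed the threshold under any alternative. The mi699a-5p comparisons are left out of this statement. The count of genes called depended on the tool. DESeq2 gave 3 in Let7d against NC, 6 in mi699a-5p against NC, 8 in Let7e against Let7d and 11 in mi699a-5p against the let-7 groups, limma-voom gave 1 in mi699a-5p against NC, and the cause was not tested. Leaving out one replicate gave 0 to 1 in Let7d against NC, 0 to 1 in Let7e against Let7d (1 without Let7d replicate 2) and 0 to 2 in mi699a-5p against NC (2 without mi699a-5p replicate 3). In Let7d against NC the count was 0 without Let7d replicate 1 or 3 or NC replicate 1 or 3.

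Same-numbered replicates did not deviate together on average (mean correlation 0.006 over 19 pairs, against -0.002 over 54 others). Such a mean over few replicates cannot exclude that some samples are paired. With the replicate block the count in Let7d against NC was 0.

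Leaving out mi699a-5p replicate 1 also moved Cops9 against the let-7 groups to -0.51, against 0.09 with all replicates. Small fold changes over NC turned sign. In Let7e Cops9 was at 0.03 with limma-voom and 0.17 with replicates of at least 3 cells, and Cops4 at 0.05 with that filter. In Let7d Cops8 was at 0.05 with cell means and limma-trend. With one replicate left out, the ranges in Let7d over NC were -0.15 to 0.04 for Cops8, -0.01 to 0.27 for Cops4, -0.20 to 0.36 for Cops7b, -0.32 to 0.11 for Gps1 and -0.39 to 0.01 for Cops9. In Let7e over NC they were -0.19 to 0.20 for Cops9, -0.16 to 0.05 for Cops4 and -0.47 to 0.00 for Cops7b, and in Let7e over Let7d -0.22 to 0.15 for Cops2. Over all alternatives of mi699a-5p over NC, both signs occurred for Cops2 (-0.11 to 0.22), Cops4 (-0.05 to 0.1) and Cops7b (-0.43 to 0.05). They also occurred for Cops9 (-0.62 to 0.19) and Gps1 (-0.72 to 0.01). Cops3, Cops5, Cops6, Cops7a and Cops8 stayed negative there. The cause of these sign changes was not tested. Read counts carry amplification copies, and 3 or 4 replicates limit what can be detected.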
